A study of Danio rerio with 16 samples.

Results

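The genes described here encode the proteins that the liver secretes into blood plasma, among them apolipoproteins, clotting factors and their inhibitors, complement proteins, and carriers. They were chosen by name alone: named entries whose symbol begins like an apolipoprotein, a serpin, a numbered coagulation or complement factor, or 1 of a set of single plasma proteins. Of 11959 named genes and 35872 genes in all, 71 fit this rule, and 65 of them were above 0 in at least 1 library. By their known products, 39 of the 71 are plasma proteins (36 of them above 0), while the other 32 share the name pattern only, work at the cell surface or inside cells, or are secreted proteins (C1q-domain genes and some serpins) not counted here among the plasma proteins of the liver. The 6 genes listed at 0 in every library were apobec2b, apoda.1, apodb, apooa, rbp4l, and serpini1. Several classical plasma genes, among them apoa1a, fga, f2, and tfa, are not among the named entries and were not analysed here.

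Hepatocytes make most of the protein of blood plasma. Fibrinogen, assembled from the chains encoded by fga, fgb, and fgg, is cut by thrombin into the fibrin of a clot, plasmin dissolves the clot, and serpins such as antithrombin hold the proteases in check. Complement is a protease cascade that starts from C1q on bound antibody, from lectins, or from the factor B and factor D loop of the alternative pathway, and meets at C3. Apolipoproteins carry and direct lipid in plasma. In mammals, fibrinogen and several complement proteins belong to the acute-phase response of the liver.

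Liver RNA of zebrafish (Danio rerio) was sequenced in 16 libraries, 4 for each of 4 types of fish. WT were of the AB strain, while the transgenic types carried HBx, the X gene of hepatitis B virus (type HBx(p53-)), src (type Src(p53-)), or both (type HBx,Src(p53-)), driven in hepatocytes by the fabp10a promoter on a p53 mutant background, so that in every comparison with WT the transgene and the p53 background cannot be told apart. Fish were 3 months old at the start and were fed for 8 weeks with a normal diet of Artemia (NOR), with overfeeding (DIO), or with high-fat food (FAT). WT and the types with a single transgene each had 2 NOR libraries, 1 DIO library, and 1 FAT library, and HBx,Src(p53-) had 2 NOR and 2 DIO libraries. Below, obesity means DIO and FAT together. By the fish numbers in the legends of its supplement, each library stands for a single fish. Its sex is not given in the sources used here.

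Levels are FPKM, a fragment count corrected for transcript length and library size, which can be compared between genes. Differences are on the log2(FPKM + 1) scale, which understates the change of low genes, and were tested with limma over 33727 genes, with Benjamini-Hochberg adjustment and a threshold of 0.05. Read counts were not used here, so the depth behind a single value is unknown. Library totals lay between 812158 and 1218150 FPKM, with 20349 to 23010 genes above 0 in each. The src level was 3.47 to 47.3 FPKM in the 8 libraries of src carriers and 0 to 4.24 FPKM in the 8 others, so the ranges overlapped. Hepatocyte markers were high in every library, with the 7 matched genes of 12 summing to between 3651 and 8024 FPKM. Markers of other tissues were uneven. The 10 matched exocrine pancreas genes (of 18) summed to 3.61 to 20.3 FPKM in WT but to 27.3 to 235 in HBx(p53-). Src(p53-) had 8.69 to 64.8, and the type with both transgenes had 39.2 to 328. The 5 matched ovary genes (of 7) summed to at most 0.861 FPKM outside HBx,Src(p53-) and to 1.53 to 21.5 FPKM within it. A smaller amount of RNA per cell and fewer cells of a type cannot be told apart in whole liver.

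The plasma protein genes held between 2.11% and 4.51% of the FPKM of a library. The gene fgg alone held 0.731% to 2.72%, and without it the range was 1.15% to 2.48%. Of the 39, 31 had a mean of at least 1 FPKM and 16 had a mean of at least 100 FPKM. None of the 32 other genes reached a mean of 100 FPKM. The highest mean belonged to fgg, the fibrinogen gamma chain, with 12428 FPKM, which placed it at rank 4 among the named genes. After it came serpina1l, a relative of alpha-1-antitrypsin, with 3631 FPKM, and plg, the plasminogen gene, with 2890 FPKM. The apolipoprotein genes apoa2 and apoc1 had means of 2758 and 1618 FPKM, and serpinc1, which encodes antithrombin, had 1657 FPKM. They were followed by f7 (factor VII, the start of the extrinsic clotting path) with 795 FPKM, fgb (the fibrinogen beta chain) with 655, ambp (bikunin and alpha-1-microglobulin) with 528, and ahsg2 (a fetuin) with 512. Complement was led by cfb, the factor B protease of the alternative pathway, with 399 FPKM, and by c3a.1, a C3 gene, with 221 FPKM. The terminal component c8b had a mean of 30.7 FPKM.

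**Figure D1:**
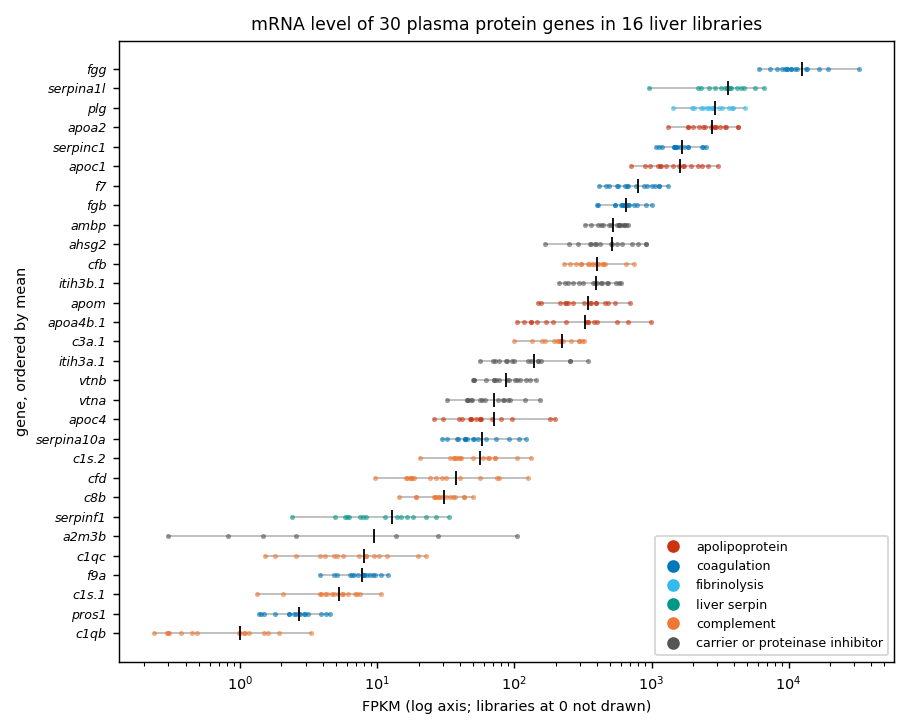
Level in FPKM of 30 plasma protein genes whose mean reached 1 FPKM, on a log axis. Points are the 16 libraries, black ticks are means, and colours give the role; fgg leads with a mean of 12428 FPKM, and a2m3b, drawn only in the libraries where it is above 0, has the widest spread.

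Both fibrinogen chains measured here end up in the same protein in equal number, but their levels were far apart. The fgg level was 11.5 to 43.7 times the fgb level in the same library, with a median of 16.7. The study describes FPKM as estimated for transcripts, but whether an entry here is a gene total or 1 transcript is not stated. This ratio may depend on it. Genes next to each other also differed in level. In the RefSeq order of assembly GRCz12tu (used for neighbours only), apoc1, apoc4, and apoa2 lie side by side on chromosome 16, with apoa4b.1 a few genes away, and their means were 1618, 70.5, 2758, and 329 FPKM. Copies in tandem may share reads: c3a.1 lies among other C3 genes, serpina1l beside serpina1, cfbl near cfb, f7 beside f7-like genes, apoa4b.1 beside 2 copies of its own, and itih3a.1 and itih3b.1 each beside a sister copy. Their levels are therefore uncertain.

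Among the genes whose mean reached 10 FPKM, the most even were ambp, fgb, serpinc1, plg, and cfb. For ambp, the 16 libraries ran from 329 to 674 FPKM, with an SD of 0.32 on the log2 scale. For serpinc1 they ran from 1081 to 2489 FPKM, with an SD of 0.36. The most variable were c1d, cfd, apoa4b.1, serpinf1, and c1galt1lb, of which c1d (a nuclear protein) and c1galt1lb (a glycosyltransferase) are not plasma proteins. Among the plasma genes of this level, serpinf1 had the largest ratio of highest to lowest library (33.4 against 2.39 FPKM), followed by cfd (125 against 9.56 FPKM). The apolipoprotein A-IV gene apoa4b.1 ran from 105 FPKM in the WT DIO library to 997 FPKM in the WT FAT library. No member whose mean reached 10 FPKM was listed at 0 in any library. Such a 0 was uncommon among all genes of that level too, at 159 of 4755. Just under that level, a2m3b (mean 9.48 FPKM) was listed at 0 in 9 libraries. Whether such a 0 is a failed estimate was not tested.

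**Figure D2:**
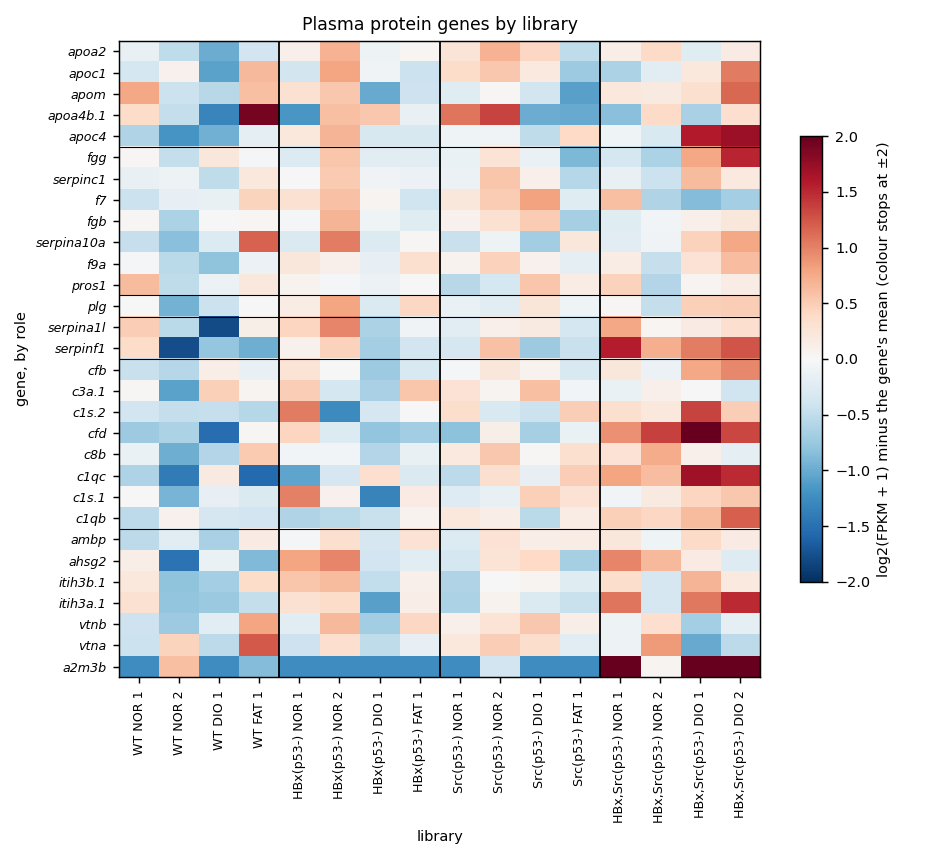
Heat map of the same 30 genes (lines, grouped by role) in the 16 libraries (columns, grouped by type of fish). Colour is log2(FPKM + 1) minus the mean of the gene; the HBx,Src(p53-) columns are red for cfd, c1qc, and serpinf1, and the WT FAT column stands out for apoa4b.1, vtna, and serpina10a.

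The comparison of HBx,Src(p53-) with WT, over NOR and obesity, asked whether the combined transgenes go with other levels of plasma protein mRNA. The diets were not matched: HBx,Src(p53-) had no FAT library, so the FAT library of WT has no counterpart there. Complement genes were the ones that passed the test. With both transgenes, cfd, cfbl, and c1qc were called higher, and no gene of the 65 was called lower. These 3 of 65 (2 of them with a mean of at least 1 FPKM) stand against a background of 0.617% of all genes called, 0.516% higher. At an unadjusted p under 0.05 it was 20 of 65, against 12.9%.

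The gene cfd encodes factor D, the protease that cuts factor B in the alternative pathway. It had 17.4, 18.4, 9.56, and 29.8 FPKM in WT (NOR 1, NOR 2, DIO, FAT) and 56.0, 77.2, 125, and 75.1 FPKM in HBx,Src(p53-) (NOR 1, NOR 2, DIO 1, DIO 2). Every HBx,Src(p53-) library was above every WT library, and also above the 8 libraries of HBx(p53-) and Src(p53-), which ran up to 39.9 FPKM. The difference was 2.13 ± 0.39 (SE, n = 4 against 4; limma adjusted p = 0.0261).

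The gene c1qc encodes a chain of C1q, which starts the classical pathway and in mammals is made mainly by macrophages. It had 3.82, 1.80, 7.33, and 1.52 FPKM in WT and 11.8, 10.4, 22.8, and 19.7 FPKM in HBx,Src(p53-). All 4 libraries of HBx,Src(p53-) were again above the other 12, of which the highest had 9.40 FPKM. The difference was 2.00 ± 0.38 (SE, n = 4 against 4; limma adjusted p = 0.0321).

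The other chains of C1q lie beside it on chromosome 21 and had low levels. In HBx,Src(p53-), c1qa had 1.02, 1.24, 2.14, and 3.43 FPKM, against 0.193 to 0.639 FPKM in WT. The values of c1qb were 1.61, 1.50, 1.92, and 3.30 FPKM, against 0.304 to 0.992 FPKM in WT. Neither passed the test, at 0.98 ± 0.24 (limma adjusted p = 0.0798) and 0.97 ± 0.27 (limma adjusted p = 0.124), although their HBx,Src(p53-) libraries also lay above all others.

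The factor B relative cfbl was listed at 0 in 3 WT libraries and at 0.285 FPKM in the WT DIO library. In HBx,Src(p53-) it had 1.34, 1.15, 2.07, and 3.48 FPKM, and its highest value elsewhere was 0.891 FPKM, in the Src(p53-) FAT library. The difference was 1.44 ± 0.23 (limma adjusted p = 0.0171). Its neighbour cfb, at a far higher level, had 280, 256, 416, and 343 FPKM in WT and 446, 352, 649, and 745 FPKM in HBx,Src(p53-), a difference of 0.72 ± 0.29 that did not pass (limma adjusted p = 0.308).

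Outside complement, serpinf1 and a2m3b came closest. The gene serpinf1 encodes PEDF, a serpin without protease inhibition that is known to limit vessel growth. It had 13.9, 2.39, 5.82, and 4.89 FPKM in WT and 33.4, 18.1, 22.7, and 26.7 FPKM in HBx,Src(p53-), above all 12 other libraries. Its difference of 1.93 ± 0.41 lay just beyond the threshold (limma adjusted p = 0.0514). The alpha-2-macroglobulin gene a2m3b, of a family that traps proteases, had 105, 1.46, 27.8, and 13.7 FPKM in HBx,Src(p53-), 2.56 and 0.298 FPKM in a NOR and the FAT library of WT, 0.812 FPKM in a Src(p53-) NOR library, and was listed at 0 in the other 9 libraries. The HBx,Src(p53-) NOR 2 library lay within the range of WT, and the difference did not pass (limma adjusted p = 0.0668).

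Of the 65 genes above 0, 6 had all 4 HBx,Src(p53-) libraries above the other 12, against 0.824% of all 33727 genes. They were c1qa, c1qb, c1qc, cfbl, cfd, and serpinf1. The 4 libraries lay below the other 12 for 0 of the 65, against 0.0356% of all genes. Among the 31 plasma genes whose mean reached 1 FPKM, 4 had them above, against 1.28% of the 12319 genes of that level. These counts were chosen after the values were seen.

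**Figure D3:**
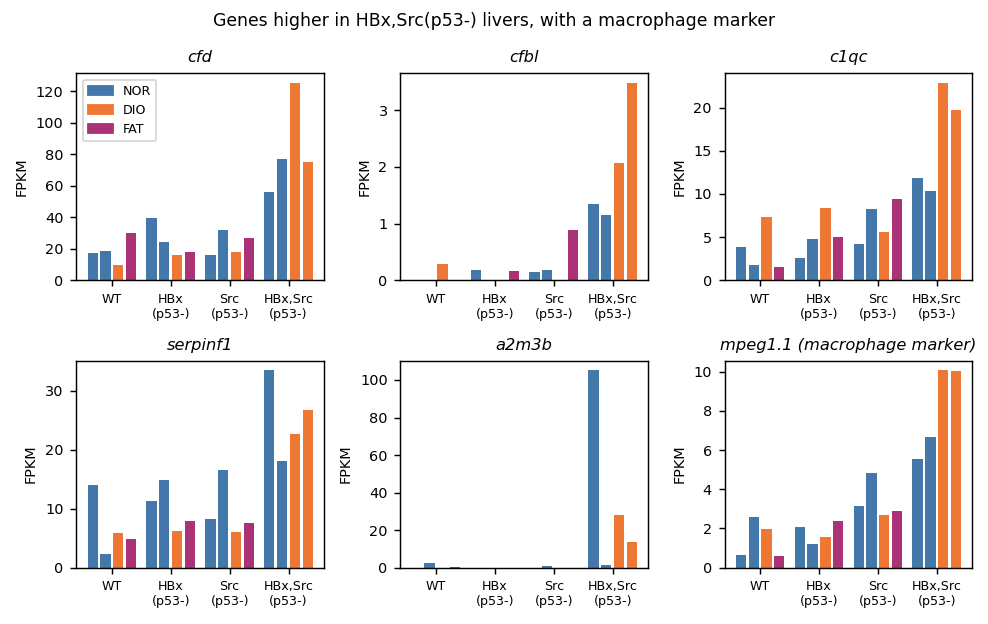
FPKM by library of cfd, cfbl, c1qc, serpinf1, a2m3b, and the macrophage marker mpeg1.1; each bar is 1 library, coloured by diet and grouped by type of fish. The 4 HBx,Src(p53-) bars are above all others in every panel except a2m3b, where the NOR 2 library had 1.46 FPKM.

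The calls were near the threshold. Leaving out 1 library at a time, the adjusted p ran from 0.0215 to 0.0835 for cfd (limma), which was lost without WT NOR 1, WT NOR 2, WT DIO 1, or either HBx,Src(p53-) DIO library. For c1qc it ran from 0.019 to 0.099 (limma), lost without WT NOR 2, WT FAT 1, HBx,Src(p53-) NOR 1, or either HBx,Src(p53-) DIO library, and for cfbl from 0.00578 to 0.0502 (limma), lost without WT FAT 1. Without the HBx,Src(p53-) NOR 1 library, which had the most ovary RNA, 2 genes were called, cfbl and cfd. With the FAT libraries of all types left out, 1 gene was called, cfd. With quantile normalization, cfd and c1qc were both lost, and the 1 gene called was cfbl, whose mean was 0.617 FPKM.

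Most markers of hepatocytes and of several other cells were also higher in HBx,Src(p53-) than in WT. Of the 7 hepatocyte markers, 6 were higher and 1 lower, with 0 called. Their median was 0.30, against 0.23 over all genes whose mean reached 1 FPKM. The 7 markers summed to 5214 to 7289 FPKM in HBx,Src(p53-) and to 3651 to 5646 in WT, ranges that overlapped. In HBx(p53-) they summed to 3692 to 7460 FPKM and in Src(p53-) to 4526 to 8024. Of the macrophage list, 6 of 10 genes were matched, of which 3 are the C1q genes themselves, and all 6 were higher in HBx,Src(p53-) than in WT. The marker mpeg1.1, a perforin of macrophages, had 0.655, 2.59, 1.95, and 0.573 FPKM in WT and 5.55, 6.65, 10.07, and 10.04 FPKM in HBx,Src(p53-), a difference of 1.95 ± 0.32 (limma adjusted p = 0.0177). The other matched markers were lgmn, with 26.1 to 78.0 FPKM in WT and 50.0 to 177 in HBx,Src(p53-), and cd74a, with 8.59 to 21.9 and 23.4 to 42.9 FPKM. In Src(p53-), cd74a had 30.0, 34.9, 38.2, and 32.5 FPKM, within its range in HBx,Src(p53-). Without the C1q genes, the 3 markers summed to 47.4 to 87.4 FPKM in WT, to 49.0 to 83.8 in the HBx type, to 64.5 to 85.4 in the Src type, and to 89.6 to 230 in HBx,Src(p53-). All 10 matched exocrine pancreas genes were higher in HBx,Src(p53-) than in WT, with a median of 2.58, and 1 was called. All 10 were also higher in HBx(p53-) (median 2.46, 0 called) and in Src(p53-) (median 0.85, 0 called). All 7 stellate cell and fibroblast markers above 0 were higher in HBx,Src(p53-), with sums of 19.8 to 80.1 FPKM against 6.99 to 26.1 in WT. All 3 lymphocyte markers were higher as well, with sums of 5.87 to 12.9 FPKM against 0 to 6.07 in WT. The lymphocyte sums of HBx(p53-) (4.70 to 8.87 FPKM) and Src(p53-) (0 to 8.96 FPKM) overlapped with those of HBx,Src(p53-). The neutrophil markers summed to 0.844 to 7.84 FPKM in WT (median 1.75) and to 1.53 to 31.1 FPKM in HBx,Src(p53-) (median 6.51). These ranges overlapped. The median difference was 0.21 for the endothelial list (4 higher, 1 lower) and 0.25 for the biliary list (2 higher, 2 lower). For red blood cells it was 0.05 (4 higher, 1 lower). The part of the listed cells in the higher complement levels was not tested.

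Over the 31 plasma genes whose mean reached 1 FPKM, the median difference between HBx,Src(p53-) and WT was 0.52, against 0.23 over the 12319 genes of that level. All 8 complement genes were higher, with a median of 0.84, as were 4 of 5 apolipoprotein genes (0.36), 5 of 7 coagulation genes (0.20), and 5 of 7 carriers and inhibitors (0.48). Apart from the called genes, these were differences without a call. At a fold of at least 2, a rule the study applied between obesity and normal diet, 7 of the 31 were higher and 0 lower. Of genes of that level, 12.2% were higher and 3.2% lower. The difference was 0.48 for plg, 0.39 for fgg, and 0.02 for c3a.1. With quantile normalization the median of the 31 plasma genes was 0.29, while the 0.23 over all genes is from the main fit.

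The lectins colec10 and colec11, which start complement from sugars on microbes, come from a list of complement partners of which 4 of 15 were matched. All 4 were higher in HBx,Src(p53-), with a median of 0.72, and 0 passed the test. The values of colec11 were 57.4, 19.2, 15.8, and 47.9 FPKM in WT and 64.0, 44.6, 79.8, and 88.6 FPKM in HBx,Src(p53-), a difference of 1.12 ± 0.39 (limma adjusted p = 0.225). Its protease partner masp2 was abundant throughout, with 355 to 952 FPKM. Of the lists for interleukin-6 and the acute-phase signal (14 of 18 matched), liver transcription factors (11 of 25), the vitamin K cycle (3 of 6), iron and haem partners (6 of 13), lipoprotein handling (12 of 26), and other acute-phase proteins (5 of 17), 0 genes passed in this comparison. The lipoprotein receptor scarb1 came closest, at 1.90 ± 0.43 (limma adjusted p = 0.0645).

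The other comparisons of level gave no call. Between the 8 libraries of src carriers and the 8 others, 0 of 65 genes passed limma, against 0.083% of all genes, and 12 had an unadjusted p under 0.05, against 10.3%. The lowest limma adjusted p was that of cfbl at 0.082, with a difference of 0.83 ± 0.16. For c1qc the difference was 1.18 ± 0.27 (limma adjusted p = 0.134), and for cfd it was 1.04 ± 0.27 (limma adjusted p = 0.207). This comparison holds the HBx,Src(p53-) libraries, and in Src(p53-) alone against WT the differences were 0.88 ± 0.38 for c1qc and 0.33 ± 0.39 for cfd. The median over the 31 plasma genes was 0.25 for src carriers, against 0.20 over all genes of that level. For the 31 plasma genes it was 0.17 without the Src(p53-) DIO library, and 0.095 without the DIO libraries of the types with FAT. The 0.20 over all genes is from the main fit.

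In HBx(p53-) against WT, 0 of 65 genes passed limma (0.231% of all genes did), and 2 had an unadjusted p under 0.05, against 7.67%. In Src(p53-) against WT it was also 0 of 65 (0.0682%), and 2 at an unadjusted p under 0.05, against 6.48%. The gene with the smallest p in both was apoa2, which encodes apolipoprotein A-II of high-density lipoprotein. It had 2370, 1859, 1328, and 2018 FPKM in WT, 2843, 4268, 2457, and 2696 in HBx(p53-), and 3156, 4271, 3498, and 1852 in Src(p53-). The HBx(p53-) libraries were all above the WT libraries, and the Src(p53-) FAT library was not. Its differences were 0.69 ± 0.25 (limma adjusted p = 0.48) and 0.72 ± 0.25 (limma adjusted p = 0.566). For apoa2 in HBx,Src(p53-) it was 0.62 ± 0.25 (limma adjusted p = 0.303). All 3 comparisons use the same WT libraries. Next in HBx(p53-) came ahsg2 (0.88 ± 0.40) and plg (0.62 ± 0.30), and the lowest p for a negative difference in a plasma gene of Src(p53-) was that of apom (-0.52 ± 0.40).

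The diet comparisons asked what obesity does to these genes in each type of fish. With 2 libraries against 2, an exact permutation test cannot give a p below 0.333, so limma draws on the spread of all 16 libraries. No plasma gene passed in any type of fish. Differences of at least 2-fold with obesity were counted over the 31 plasma genes whose mean reached 1 FPKM. In WT it was 1, against 11.8% of genes of that level, and in HBx(p53-) 4, against 10.9%. In Src(p53-) it was 2, against 23.9%, and in HBx,Src(p53-) 4, against 27.7%. Errors given with ± are SE, here with n = 2 against 2.

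Among the HBx,Src(p53-) fish, 0 of 65 genes passed limma, against 0.335% of all genes, and 10 had an unadjusted p under 0.05, against 11%. The apolipoprotein gene apoc4 had 56.2 and 48.4 FPKM in the NOR libraries and 181 and 198 FPKM in the DIO libraries, the latter being its highest values in any library. In the other types of fish it ran from 25.9 to 96.6 FPKM. The difference of 1.84 ± 0.39 missed the threshold (limma adjusted p = 0.0942). Its neighbour apoc1, a small apolipoprotein that exchanges between lipoproteins, had 970 and 1280 FPKM on NOR and 1733 and 3067 FPKM on DIO (1.05 ± 0.59), whereas the neighbour apoa2 had 2902 and 3421 on NOR and 2229 and 2963 on DIO (-0.29 ± 0.38).

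Neither fibrinogen chain passed in the same fish, and the diet differences of the chains were not tested against each other. For fgg, NOR gave 8874 and 7350 FPKM, and DIO gave 19503 and 32676 FPKM, its highest values of all 16 libraries. The difference was 1.64 ± 0.39 (limma adjusted p = 0.138), and with quantile normalization it passed (limma adjusted p = 0.0458). For fgb, the same libraries had 539 and 614 FPKM and 685 and 749 FPKM, a difference of 0.32 ± 0.41 (limma adjusted p = 0.959). The ratio of fgg to fgb was 16.5 and 12.0 on NOR and 28.5 and 43.7 on DIO, and at most 21.0 in the other 12 libraries.

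**Figure D4:**
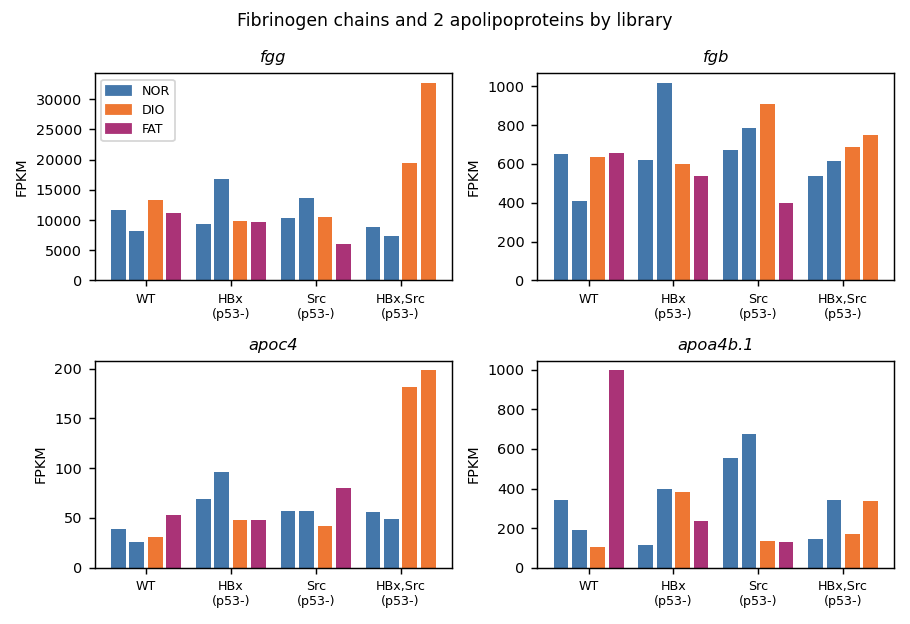
FPKM by library of fgg, fgb, apoc4, and apoa4b.1; each bar is 1 library, coloured by diet and grouped by type of fish. The HBx,Src(p53-) DIO bars stand above the NOR bars for fgg and apoc4, the fgb bars of these fish run only from 539 to 749 FPKM, and both obesity bars of Src(p53-) are low for apoa4b.1.

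Other plasma genes of the HBx,Src(p53-) fish lay on both sides. Over the 31 genes the median difference with obesity was 0.43, against -0.10 over all genes of that level. It was 0.23 without the DIO 1 library, and 0.16 with libraries scaled to the same sum. Both DIO libraries were above both NOR libraries for 14 of the 31 and below for 5, against 22% and 29.6% of genes of that level. The higher ones included cfb (0.81 ± 0.29), plg (0.72 ± 0.39), and serpinc1 (0.70 ± 0.37), and the lower ones were vtna (-1.14 ± 0.59) and its sister vtnb (-0.55 ± 0.48), which encode the adhesion protein vitronectin, f7 (-0.77 ± 0.45), ahsg2 (-0.86 ± 0.53), and c8b (-0.55 ± 0.43). None of these passed. Of the acute-phase list, crp7, a C-reactive protein gene, was called, at 0.551 and 0.506 FPKM on DIO and 0 on NOR (0.61 ± 0.04; limma adjusted p = 0.000323), a level near the floor. Of the 7 hepatocyte markers, 5 were higher with obesity and 2 lower, with a median of 0.38 and 0 called. The macrophage marker mpeg1.1 had 5.55 and 6.65 FPKM on NOR and 10.07 and 10.04 FPKM on DIO. The part of either cell type in these differences was not tested.

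In HBx(p53-), most plasma genes were at lower levels with obesity, but none passed limma: 0 of 65 did, against 0.0237% of all genes, and 4 had an unadjusted p under 0.05, against 4.41%. Of the 31 genes, 27 had a negative difference, and the median was -0.41, against -0.04 over all genes of that level. Both obesity libraries were below both NOR libraries for 14 of the 31, against 16% of genes of that level. The fetuin ahsg2 had 804 and 916 FPKM on NOR and 357 and 395 FPKM on DIO and FAT (-1.19 ± 0.53; limma adjusted p = 0.995). The carrier of sphingosine-1-phosphate apom had 391 and 461 against 157 and 237 FPKM (-1.13 ± 0.51), and serpina1l had 4493 and 6620 against 2167 and 3199 FPKM (-1.05 ± 0.58). The NOR 2 library was the highest of the 4 for 20 of the 31 genes. Without it the median was -0.14, without NOR 1 it was -0.67, and with quantile normalization it was -0.20. The hepatocyte markers were lower as well, all 7 of 7 with a median of -0.97, and 9 of 10 exocrine pancreas markers were higher, with a median of 0.97, and their part in these differences was not tested. A positive difference was seen for 3 of the 31 genes. These were c1qc, with 2.56 and 4.84 FPKM on NOR and 8.33 and 5.07 FPKM on DIO and FAT, c1qb (0.38 ± 0.37), and apoa4b.1 (0.47 ± 0.93).

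The HBx(p53-) DIO library also held low but unusual levels of a pair of neighbours on chromosome 19, apoa4a and apoea, which encode apolipoproteins A-IV and E. The level of apoa4a was 5.51 FPKM there, 1.39 FPKM in a Src(p53-) NOR library, and at most 0.101 FPKM in the other 14. The level of apoea was 2.28 FPKM there and at most 0.277 FPKM elsewhere. With the FAT libraries left out, both passed the test of diet in HBx(p53-), which then rests on this 1 DIO library. The intestine list, of which apoa4a is a member, was otherwise low in that type, with its 4 remaining genes summing to at most 0.561 FPKM. This says little, since 2 of the 4 were at 0 in all libraries. In the DIO library the sum came from cdh17 (0.505 FPKM) and cdx4 (0.0555 FPKM).

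In Src(p53-), 0 of 65 genes passed limma, against 0.0771% of all genes, and 2 had an unadjusted p under 0.05, against 8.6%. Among these, the apolipoprotein A-IV gene apoa4b.1 had 556 and 674 FPKM on NOR and 133 and 131 FPKM on DIO and FAT (-2.21 ± 0.93; limma adjusted p = 0.564). Its libraries varied in other types too, as in WT, with 342 and 190 FPKM on NOR and 105 and 997 FPKM on DIO and FAT. The protein S gene pros1, a cofactor of anticoagulation, had 1.43 and 1.78 against 4.25 and 2.95 FPKM (0.81 ± 0.44). Both obesity libraries were above both NOR libraries for 3 of the 31 genes and below for 5, against 11% and 35.6% of genes of that level. These included apoc1 (-0.72 ± 0.59), serpinf1 (-0.71 ± 0.61), apom (-0.62 ± 0.51), the C1s protease gene c1s.1, which is matched through a non-coding RefSeq name (0.58 ± 0.51), and plg (0.25 ± 0.39). The median over the 31 genes was -0.092, against -0.34 over all genes of that level. For the 31 genes it was -0.37 without NOR 1, -0.016 without NOR 2, and 0.15 with libraries scaled to the same sum. The -0.34 over all genes is from the main fit.

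In WT, 0 of 65 genes passed limma, against 0.0712% of all genes, and 0 had an unadjusted p under 0.05, against 4.42%. The protein Z-dependent inhibitor gene serpina10a had 38.4 and 29.4 FPKM on NOR and 43.6 and 122 FPKM on DIO and FAT (1.1 ± 0.55; limma adjusted p = 1). The obesity libraries were both above the NOR libraries, but most of the difference came from FAT. Both were above NOR for 5 of the 31 genes, against 12.9% of genes of that level, among them vtnb (0.85 ± 0.48) and c3a.1 (0.79 ± 0.50). For serpina1l, DIO and FAT lay on either side, with 4689 and 2295 FPKM on NOR, 964 on DIO, and 3642 on FAT (-0.81 ± 0.58). The median over the 31 genes was 0.14, against 0.03 over all genes of that level. Leaving out the FAT library turned it to -0.070, and leaving out NOR 1 gave 0.56.

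**Figure D5:**
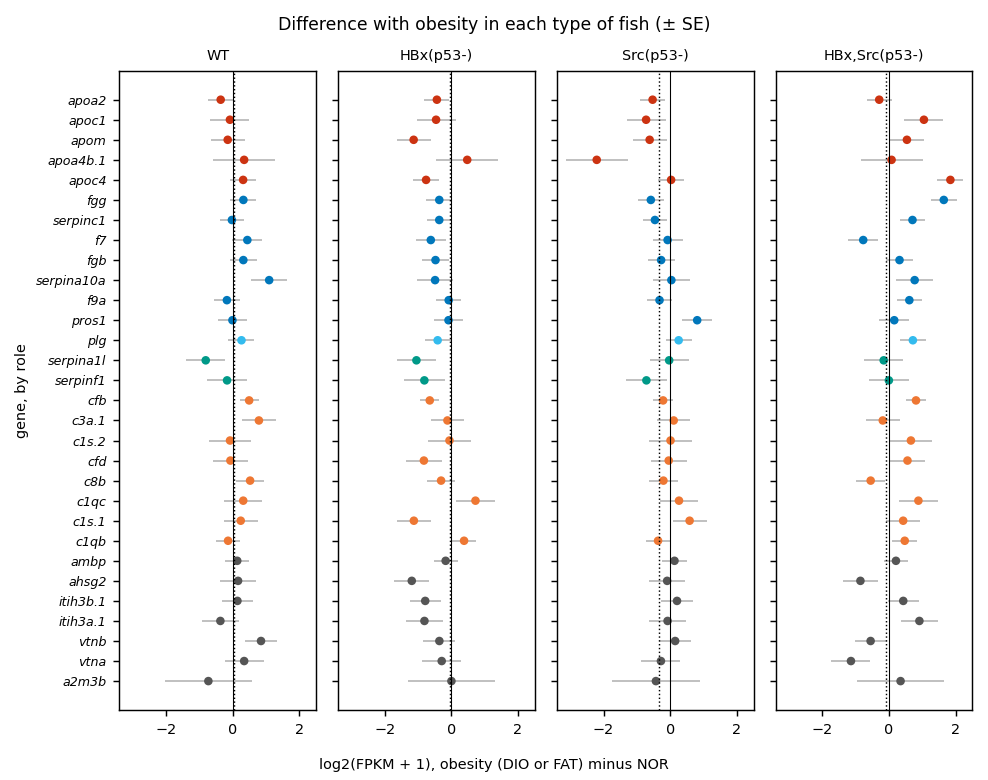
Difference in log2(FPKM + 1), obesity minus NOR, with its SE, for the same 30 plasma protein genes in each type of fish. Points are coloured by role (red apolipoproteins, dark blue coagulation, light blue fibrinolysis, green liver serpins, orange complement, grey carriers and inhibitors) and the dotted line is the median of 12319 genes; 26 of 30 points are below 0 in HBx(p53-), and apoc4 and fgg lie farthest to the right in HBx,Src(p53-).

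Across the 4 types of fish together, 0 of 65 genes passed limma for a common diet effect, as did 0% of all genes, and 1 had an unadjusted p under 0.05, against 4.23%. That gene was apoa2 (-0.40 ± 0.18; limma adjusted p = 0.822). For no plasma gene did the 8 obesity libraries lie apart from the 8 NOR libraries, which held for 0.00812% of genes of that level. For c1qc the common difference was 0.55 ± 0.27. The difference in diet effect between src carriers and the other fish also gave 0 of 65, against 0.0356%, and 4 at an unadjusted p under 0.05, against 9.42%. The smallest p among the plasma genes was for apoc4 (1.16 ± 0.39; limma adjusted p = 0.393), for which DIO and FAT gave -0.76 ± 0.39 in HBx(p53-). The apoc4 difference was 1.84 ± 0.39 in HBx,Src(p53-). In Src(p53-), apoc4 had 56.5 and 56.8 FPKM on NOR and lay on either side with 41.8 on DIO and 79.6 on FAT. Next after apoc4 came c1s.1 (0.95 ± 0.51) and, in the other direction, apoa4b.1 (-1.47 ± 0.93). The opposite medians of HBx(p53-) and HBx,Src(p53-) were not tested against each other.

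DIO and FAT could be set side by side only as 1 library each, with no replicate check. In WT, FAT was above DIO for 21 of the 31 plasma genes, with a median of 0.59, against 61.9% of genes of that level and a median of 0.27. At a fold of at least 2, 10 of the 31 were higher on FAT and 1 lower, against 20.8% and 8.6%. The largest of these was apoa4b.1, with 997 against 105 FPKM. In HBx(p53-), FAT was above DIO for 21 of the 31 as well (median 0.29), although only 33.2% of genes of that level were (median -0.27). In Src(p53-), FAT was above DIO for 9 of the 31 (median -0.32), against 53% (median 0.06).

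The 32 genes not counted as plasma proteins were low. Only 11 had a mean of at least 1 FPKM, led by c1d at 38.0 and apool, a mitochondrial protein, at 26.1 FPKM. The collagen chaperone genes serpinh1a, serpinh1b, and serpinh2 had means of 4.13, 0.142, and 0.464 FPKM, and the tissue factor genes f3a and f3b, whose membrane protein starts clotting with factor VII, had 0.584 and 0.444 FPKM. The level of c1d was 46.8 and 12.8 FPKM on NOR and 83.2 and 145 FPKM on DIO in HBx,Src(p53-), a difference of 2.1 ± 0.86 (limma adjusted p = 0.416). In the same fish c2cd2l, a lipid transfer protein of the endoplasmic reticulum, had 12.2 and 5.68 against 1.39 and 2.52 FPKM (-1.70 ± 0.65; limma adjusted p = 0.381), and c1galt1lb had 50.1 and 22.7 against 16.02 and 7.76 FPKM (-1.51 ± 0.79). The glycosylation chaperone gene c1galt1c1 was lower than in WT in each transgenic type, with no call: the difference was -0.66 ± 0.32 for HBx(p53-), -0.51 ± 0.32 for the Src type, and -0.55 ± 0.32 for the type with both. The C1q-domain genes outside complement were low too, c1qtnf1 being the only one whose mean reached 1 FPKM, at 3.91 FPKM.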

How the data were processed

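The authors aligned the reads of 16 liver libraries to GRCz10 (danRer10) with HISAT2 2.1.0, and assembled and quantified transcripts with StringTie 1.3.4d and Ballgown. The deposited FPKM, in a table that equals the files of single libraries, were used unchanged. Of 35885 entries, 12235 carry a RefSeq transcript name, of which 11763 were matched to a symbol, and 4072 identifiers are symbols. The study describes FPKM as estimated for transcripts, but whether a deposited entry is a gene or 1 transcript is not stated. Open reading frame names, 2 in all, were dropped. Each plasma gene came from 1 entry. The values of 1 gene are not reported here, although it counts in all totals.

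Values were log2(FPKM + 1), for the 33727 genes above 0 in at least 1 library. They were tested with limma 3.58.1 (lmFit, eBayes with trend) in R 4.3.3, adjusted over all genes: diet effects in a model of 8 groups, levels and the common diet effect in a model of type of fish and obesity. Tables and figures were made in Python 3.11.15. Members, lists, and roles were chosen with earlier results of these data known, and medians are descriptions. Named are all called genes, in each comparison the 3 largest differences each way whose libraries do not overlap (or the smallest p), the 10 highest genes, and the 5 most and 5 least variable. Some genes outside this rule are named for their role or beside a neighbour. Alternatives were another pseudocount, filter, or scaling, diets left out, libraries left out in turn, and a replicate block. Medians over all genes are of the main fit throughout, also beside a plasma median from an alternative. The female liver list matched 0 of 9 genes, and the endocrine pancreas list matched 5 of 5. Lists of endothelial (5 of 8), stellate (9 of 10), biliary (4 of 7), lymphocyte (3 of 8), and red blood cell genes (5 of 6) matched in part. In HBx,Src(p53-) against WT, 0 genes of these lists were called.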

Additional observations from a re-analysis of the deposited data

How the results depend on the processing

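The median difference of the 31 plasma genes moved by less than 1 SD between libraries (0.496) under every alternative run, but most medians are smaller than that SD. The medians of the diet effect in WT and in Src(p53-), of the common effect, and of the difference in diet effect changed sign under some. For HBx,Src(p53-) against WT the median ran from 0.41 to 0.66 when 1 library was left out and from 0.29 to 0.66 under the other alternatives. In HBx,Src(p53-) against WT, 3 genes were called. There were 5 with a pseudocount of 0.1, 1 with quantile normalization (cfbl), and 1 without the FAT libraries (cfd). Leaving out 1 library gave 1 to 6. The share of all genes called under each alternative is not given here. With obesity, 1 gene (fgg) was called in HBx,Src(p53-) under quantile normalization, and 2 (apoa4a and apoea) in HBx(p53-) without the FAT libraries. Leaving out 1 library gave 0 to 2 calls for these 2 diet effects, for the difference in diet effect, and for src carriers. The cause of these shifts was not tested.

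The replicate block could be run only on the 10 libraries with a number, where 0 genes were called in HBx,Src(p53-) against WT, and the same fit unblocked, an alternative chosen after seeing the data, also gave 0, with fewer libraries. The median of this NOR difference was 0.49. The deviations of equally numbered libraries correlated between -0.26 and 0.22. With so few libraries, this cannot settle whether the numbers pair the libraries.

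Some values near 0 changed sign. For src carriers (main values -0.06 for f7, -0.08 for apoa4b.1, and -0.20 for c1galt1c1), they were 0.049 and 0.43 for f7 and apoa4b.1 without the FAT libraries, 0.013 for c1galt1c1 without DIO, and 0.11, 0.66, and 0.24 in the 10 libraries, blocked or not. In HBx,Src(p53-) against WT, vtna was -0.37, but 0.078 without the FAT libraries and 0.37 in the NOR libraries alone, where f7 was 0.30. In WT, the diet difference of serpina1l was -0.81, but 0.15 without DIO. Leaving out 1 library, the ranges were -0.22 to 0.057 for f7 and -0.31 to 0.27 for apoa4b.1 (src carriers), -0.69 to 0.072 for vtna, and -1.77 to 0.15 for serpina1l. FPKM without counts limit what can be said of genes below 1 FPKM such as cfbl.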
